A study of Mus musculus with 20 samples.

Results

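The regions described here are stretches of the mouse genome inside gene bodies at which CTCF was called in TDG KO embryonic stem cells and not in WT embryonic stem cells. The peaks of 4 deposited lists, 2 from TDG KO and 2 from WT libraries, were merged into regions wherever 1 bp or more was common to them. Members were chosen by these peak calls: a region was kept if it held a peak of both TDG KO lists and of neither WT list, if its centre lay inside a gene span of the deposited expression table, and if that centre was more than 1 kb from every gene start and end. This left 2713 of 54729 regions (4.96%), and 46.1% of the 5885 TDG KO-only regions of any position. The peak lists themselves chose these regions, so their peak scores, their absence from WT lists and their position relative to gene ends are given as descriptions with no test.

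The cells were TDG KO and WT mouse embryonic stem cells of strain background 129. Both genotypes were grown with LIF and serum on arrested mouse embryonic fibroblasts, which were removed by serial plating before use. Each genotype has 2 CTCF ChIP-seq libraries and 2 libraries of polyadenylated RNA. The labels do not say whether a genotype is 1 clone or whether its libraries came from separate cultures. The p-values below therefore refer to the spread among libraries, which may be technical. RNA polymerase II, IgG and input libraries were not analysed here.

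TDG is the DNA glycosylase that cuts out 5-formylcytosine and 5-carboxylcytosine, the bases that TET enzymes make by oxidising 5-methylcytosine, and without it these bases stay in the DNA. CTCF is a zinc finger protein that binds a long DNA motif, stops loop extrusion by cohesin and so sets the ends of chromatin loops. Inside genes it has another known role: bound downstream of a weak exon, it can slow RNA polymerase II and favour inclusion of that exon, and methylation of the site abolishes binding there, as described for the CD45 gene (Ptprc) in lymphocytes. The series title asks whether 5-carboxylcytosine brings CTCF to weak sites.

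Sequence was at hand for those regions whose centre fell in a RefSeq promoter window, from 250 bases before to 50 bases after a gene start (RefSeq, GRCm38.p6). These were 23 of the 2713 regions, in 25 windows. They lie at starts that RefSeq places away from the ends of the deposited spans. Some are internal or antisense starts, and others, as at Slc44a3, are the outer start of a RefSeq gene. The windows were searched on both strands for the core of the CTCF motif, which reads CCA, any 2 bases, AG, any 2 bases and GGC, so that 8 of its 12 letters are fixed. No other motif was searched, so no overlap between motifs arises. All 8 letters were found in 1 of the 25 windows (4%) and at least 7 letters in 11 (44%). Among 52 windows at TDG KO-only regions of gene ends, 4 (7.69%) had all 8 letters and 37 (71.2%) at least 7. Among 224 windows at shared gene-body regions, which held a peak in all 4 lists, 53 (23.7%) had all 8 letters and 167 (74.6%) at least 7. Of all 32817 promoter windows 796 (2.43%) had all 8 letters and 10050 (30.6%) at least 7. The median CpG count of a window was 15 at TDG KO-only and 16 at shared gene-body regions, against 7 over all windows. The number of TDG KO-only windows is small, no difference between these shares was tested, and a match or its absence says nothing of binding by itself.

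The following stretches are the parts of 6 TDG KO-only regions that lie upstream of such a start. They show how far the best match in the printed part of such a region departs from the core, and were chosen after their values were seen. Bases of a region outside the promoter window were not searched, so a better match there cannot be known. They comprise the 1 stretch with all 8 letters, the 4 of highest mean peak percentile among the 7 stretches with 7 letters, and the best-ranked stretch of all, which has 6. Each is printed 5′ to 3′ on the strand of the named gene, with the best 12-base match to the core, on either strand, in capitals.
Zfp335os start: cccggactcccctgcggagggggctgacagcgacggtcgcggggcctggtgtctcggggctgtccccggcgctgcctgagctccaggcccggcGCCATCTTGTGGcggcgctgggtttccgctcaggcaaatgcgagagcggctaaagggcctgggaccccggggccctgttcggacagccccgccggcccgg
Hils1 start: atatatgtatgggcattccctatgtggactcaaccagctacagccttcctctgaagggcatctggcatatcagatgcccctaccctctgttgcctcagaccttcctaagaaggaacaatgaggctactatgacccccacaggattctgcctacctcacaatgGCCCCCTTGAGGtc
Kansl1 start: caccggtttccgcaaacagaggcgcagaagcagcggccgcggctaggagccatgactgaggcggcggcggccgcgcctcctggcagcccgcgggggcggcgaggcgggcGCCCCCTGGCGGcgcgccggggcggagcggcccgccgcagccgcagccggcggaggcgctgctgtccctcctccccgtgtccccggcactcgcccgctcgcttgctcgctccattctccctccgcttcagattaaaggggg
Slc44a3 start: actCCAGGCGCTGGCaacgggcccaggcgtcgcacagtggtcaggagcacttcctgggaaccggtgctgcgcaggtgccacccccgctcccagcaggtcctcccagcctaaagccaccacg
Gm12536 start: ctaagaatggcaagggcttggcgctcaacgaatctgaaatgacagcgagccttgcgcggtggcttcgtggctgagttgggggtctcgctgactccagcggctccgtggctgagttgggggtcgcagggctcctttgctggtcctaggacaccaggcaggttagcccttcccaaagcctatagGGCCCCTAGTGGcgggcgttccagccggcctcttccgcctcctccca
4631405J19Rik start: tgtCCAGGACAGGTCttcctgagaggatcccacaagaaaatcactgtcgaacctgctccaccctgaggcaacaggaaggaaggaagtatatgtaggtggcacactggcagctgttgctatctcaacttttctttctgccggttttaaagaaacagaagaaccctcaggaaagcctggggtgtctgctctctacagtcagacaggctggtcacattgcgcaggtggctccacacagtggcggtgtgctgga
The Zfp335os stretch is chr2:164911240-164911432 on the plus strand and lies inside Zfp335. The Hils1 stretch is chr11:94967417-94967592 on the plus strand, inside Sgca. The Kansl1 stretch is chr11:104442292-104442541 on the minus strand at a start inside Kansl1, with 36 CpG. The Slc44a3 stretch is chr3:121532345-121532465 on the minus strand, in a region centred 0.008 kb from the outer start of that RefSeq gene. The Gm12536 stretch is chr4:57300622-57300850 on the plus strand, in a region that also lies in Ptpn3. The 4631405J19Rik stretch is chr2:93029098-93029347 on the plus strand. The region of the Zfp335os stretch, which has the complete core, was among the weakest, at percentiles 5.06 and 4.03 in TDG KO lists 1 and 2. The region of the 4631405J19Rik stretch, which has 6 of the 8 letters, reached percentiles 36.4 and 41.2.

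For comparison, 2 stretches come from the best-ranked shared gene-body regions at such starts.
Gm31812 start, shared: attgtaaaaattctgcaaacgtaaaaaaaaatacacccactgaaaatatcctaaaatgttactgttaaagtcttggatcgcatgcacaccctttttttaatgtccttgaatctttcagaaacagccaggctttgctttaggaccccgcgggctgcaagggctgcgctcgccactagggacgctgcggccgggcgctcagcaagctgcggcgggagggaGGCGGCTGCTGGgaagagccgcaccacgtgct
Cilk1 start, shared: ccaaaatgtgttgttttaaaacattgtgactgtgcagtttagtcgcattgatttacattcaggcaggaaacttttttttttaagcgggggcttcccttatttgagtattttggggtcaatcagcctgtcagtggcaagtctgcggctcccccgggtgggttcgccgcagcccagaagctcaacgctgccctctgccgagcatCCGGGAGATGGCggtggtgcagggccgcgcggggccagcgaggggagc
The Gm31812 stretch is chr1:52113891-52114140 on the minus strand, in a shared region at percentiles 99.97 and 99.92 of the TDG KO lists and 99.5 and 99.1 of the WT lists. The Cilk1 stretch is chr9:78112988-78113237 on the plus strand, in a shared region at 99.1 and 99.7 of the TDG KO lists and 95.7 and 98.7 of the WT lists. Both stretches have 7 letters. The printed TDG KO-only stretches were chosen partly by letters matched, so these few stretches cannot show how letters relate to peak rank.

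The TDG KO-only gene-body regions were weak peaks in their own lists. The score is the authors' own value for a peak. The sources used here do not say what it measures, so peaks were only ranked within a list, with 100 the strongest percentile. The median percentile was 17.7 in TDG KO list 1 and 16.9 in list 2, against 64.6 and 65.1 for the 15865 shared gene-body regions in the same lists. The middle 80% ran between percentiles 4.29 and 36.9 in list 1 and between 4.03 and 34.9 in list 2. In 1609 regions (59.3%) both peaks were below percentile 25, and in 14 both were at 50 or above. TDG KO-only regions at gene ends (medians 17.6 and 17.9) and between genes (18.6 and 18.8) had similar medians. The regions were also narrow, with a median width of 236 bp against 379 bp for shared gene-body regions. Low rank and narrow width were not particular to them. The 56 WT-only gene-body regions had median percentiles of 13.0 and 10.3 in WT lists 1 and 2 and a median width of 242.5 bp. The ranks in the 2 TDG KO lists correlated at a Spearman coefficient of 0.517 over the 2713 regions, and of 0.847 over the 15865 shared gene-body regions. This is a description across regions of the same 2 libraries, and the narrow range of ranks enters into it.

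**Figure D1:**
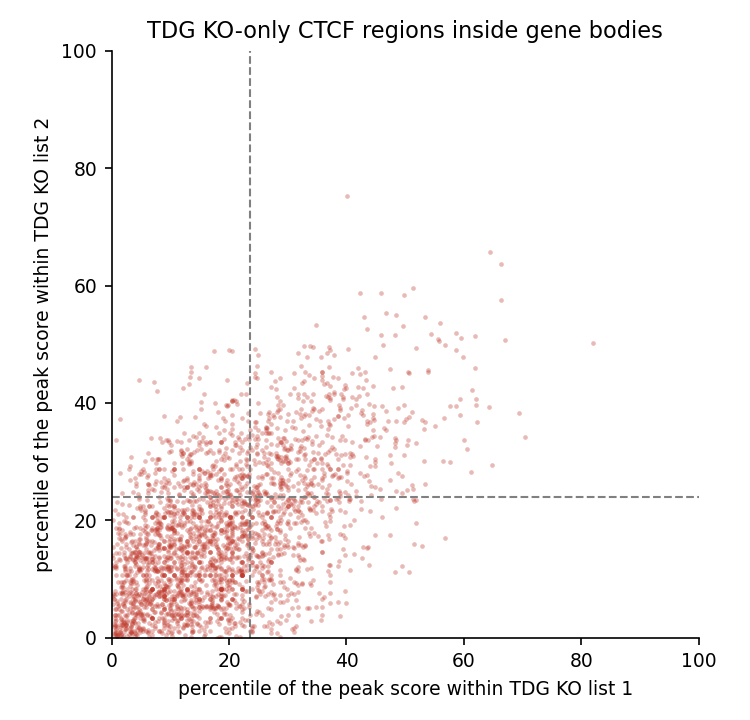
Each point is 1 of the 2713 TDG KO-only gene-body regions, placed by the percentile of its peak score within TDG KO list 1 (x axis) and list 2 (y axis). Dashed lines mark the percentiles, 23.5 and 24.0, above which each list would hold only as many peaks as the shortest WT list, and 497 regions lie above both.

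List length bears on these counts. TDG KO lists 1 and 2 held 48514 and 48833 peaks over 15.5 and 14.6 Mb, and WT lists 1 and 2 held 38303 and 37099 peaks over 10.8 and 9.85 Mb. Read depth of these libraries is unknown. If every list was limited to its strongest 37099 peaks, 538 regions met the rule, 502 of them overlapping the 2713. In the reverse direction, 56 regions inside gene bodies were WT-only. The part that list length plays in the larger TDG KO-only number was not tested.

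The best-ranked regions were isolated exceptions. A region in Nubp1, an iron-sulfur cluster assembly factor (chr16:10416045-10416376, mm10), had scores of 68.9 and 35.2 at percentiles 81.9 and 50.3 of TDG KO lists 1 and 2. The next in order lay in Tshz2, a zinc finger homeobox gene (chr2:170043323-170043857, percentiles 64.4 and 65.8), in the transporter gene Abca6 (chr11:110180831-110181239, 66.4 and 63.6) and in the ciliary gene Bbs9 (chr9:22648223-22648512, 66.3 and 57.5). The fifth was in Srl, which encodes a calcium-binding protein of the sarcoplasmic reticulum (chr16:4540366-4540702, 66.9 and 50.7). Of these only the Abca6 region was far from a shared region, at 87.7 kb, while the other 4 lay 0.89 to 3.49 kb from one. At the distance limit, the region just inside was in Rhbdl3, 1008 bp from a gene end, and the one just outside was in Notum, 997 bp from an end.

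Most TDG KO-only gene-body regions had no other such region within 10 kb, and most lay within 100 kb of a shared region. The median distance to the nearest shared region was 15.8 kb. For TDG KO-only regions between genes it was 19.2 kb, and from one shared gene-body region to the next shared region 12.6 kb. A shared region lay within 1 kb of 104 regions (3.83%), within 10 kb of 1015 (37.4%) and within 100 kb of 2489 (91.7%). The nearest pair was in Coq8b on chromosome 7, 0.348 kb apart. The nearest region with a peak in any WT list was at a median of 13.0 kb, and 125 regions were within 1 kb of one. A run of neighbours no more than 10 kb apart held 209 regions (7.70%): 95 pairs, 5 triples and 1 run of 4 in Ncor1 on chromosome 11. By comparison, 38.7% of the 15865 shared gene-body regions had another shared gene-body region within 10 kb. That set is much larger than the 2713, and a larger set has nearer neighbours at like placement. These shares therefore do not compare clustering. The 3 most remote regions were in Prr16 on chromosome 18, 501 kb from any other CTCF region, in the overlapping Gm18776 and Gm5524 on chromosome 1, at 492 kb, and in Fhit on chromosome 14, at 376 kb.

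The genes holding these regions were long. The deposited spans join overlapping neighbours, so that 20115 of 46939 genes share a span and 1 region can lie in as many as 191 genes. Host genes were therefore taken from RefSeq gene spans of the same build. By these, 2584 regions (95.2%) lay in a RefSeq gene and 2457 (90.6%) lay in one and more than 1 kb from every RefSeq gene end. They fell in 2249 genes, 1962 of them protein-coding, and 1435 genes (63.8%) also held a shared region. Protein-coding hosts had a median length of 74.9 kb, against 47.2 kb for protein-coding genes holding a shared region and 17.2 kb for all protein-coding genes. Shared gene-body regions were more numerous, at 15865 against 2713, and the part of number in these medians was not tested. A TDG KO-only region lay in 32.5% of protein-coding genes over 100 kb. The share was 11.6% of those between 20 and 100 kb and 2.42% of those under 20 kb. Shared regions followed the same order, in 79.7%, 48.1% and 13.5% of these genes. Within a host the regions lay all along the gene. Among 2271 regions in 1 protein-coding gene, 378 lay in the outer 10% of the gene from either end, 711 between 10 and 25%, and 1182 in the middle 50%. Exons and introns were not told apart here.

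**Figure D2:**
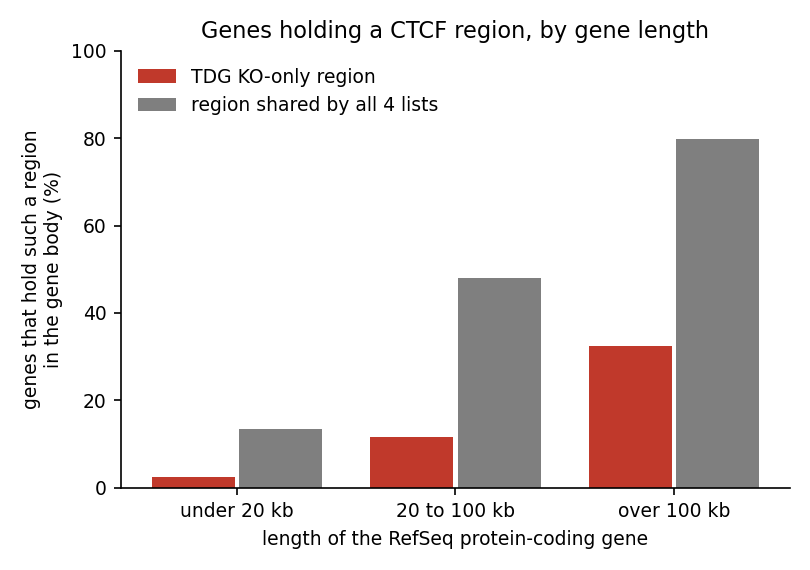
Share of RefSeq protein-coding genes (y axis, percent) that hold a TDG KO-only region (red) or a region shared by all 4 lists (grey) in the gene body, by gene length (x axis). Both shares climb with length, for TDG KO-only regions to 32.5% and for shared regions to 79.7% of genes over 100 kb.

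Most hosts, 1882 of 2249, held a single region, 276 held 2, and 14 held 5 or more. Acaca, which encodes the acetyl-CoA carboxylase of fatty acid synthesis, and Skap1, a T cell adaptor gene, held 7 each, both on chromosome 11. Csmd1 on chromosome 8, Sox5 on chromosome 6 and Tshz2 on chromosome 2 held 6 each. These 5 genes also held 7 to 12 shared regions. RNA is given as FPKM, fragments per length of transcript and size of library, and was tested with limma on log2(FPKM + 1). In bulk RNA, fewer expressing cells and less RNA per cell cannot be told apart. Acaca had 18.9 and 16.8 FPKM in TDG KO libraries against 11.1 and 11.1 FPKM in WT libraries, and rose by 0.64 on the log2 scale (SE 0.08, limma adjusted p = 0.000785). The genotypes did not overlap. The other 4 were below 1 FPKM in every library. Per length, Rabep1 (4.07 regions per 100 kb) and Ncor1 (3.53) on chromosome 11 exceeded Acaca (2.57), whereas Csmd1 had 0.365 over its 1643 kb.

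Chromosome 11 stood out. It held 472 of the 2713 regions (17.4%), but 1136 of the 15865 shared gene-body regions (7.16%). Per 100 shared gene-body regions, chromosome 11 had 41.5 TDG KO-only ones, followed by chromosomes 16 (23.7), X (23.1), 6 (21.5) and 12 (19.5). The other autosomes had between 11.4 and 17.4. TDG KO-only regions at gene ends (16.8% on chromosome 11) and between genes (12.5%) leaned the same way, so this was not a feature of gene bodies alone, and no WT-only region of any position was on chromosome 11. Chromosome 11 took 9.36% and 7.74% of all peaks in TDG KO lists 1 and 2, against 6.32% and 7.21% in WT lists 1 and 2. The libraries of 1 genotype thus differed in this share. With the rule applied to 3 lists, chromosome 11 held 12.2% of regions without TDG KO list 1, 21.6% without TDG KO list 2, 12.4% without WT list 1 and 16.9% without WT list 2. Without TDG KO list 1 or without WT list 1 the share was therefore nearer to that of shared regions, and above it in all 4.

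RNA of the same chromosome moved with these counts. The median log2 change of tested genes was 0.37 on chromosome 11, between -0.14 and 0.04 on the other autosomes and -0.10 on X. On Y it was 2.54, over only 4 tested genes, all higher. On chromosome 11, 66.0% of 976 tested genes were higher in TDG KO cells, against 24.4% of all tested genes. RNA of smaller stretches moved with the counts too. Among 10 Mb windows with at least 20 TDG KO-only gene-body regions, that with most per shared region was chromosome 16 from 10 to 20 Mb, with 39 against 65. There 16 of 20 hosts and 24 of the 60 other tested genes were higher in TDG KO cells. On chromosome 6 between 110 and 120 Mb, with 44 against 85, it was 14 of 18 hosts and 30 of 39 other genes. DNA copy number was not measured in the values used here, and its part in these counts was not tested.

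**Figure D3:**
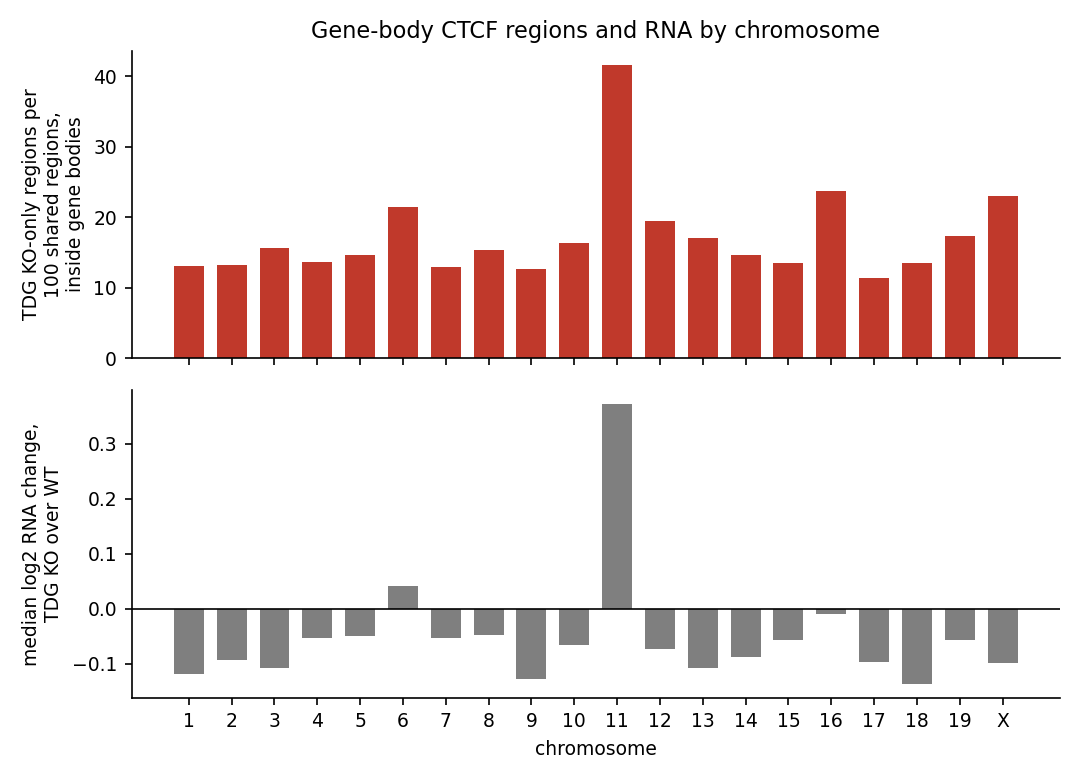
Upper bars give the number of TDG KO-only gene-body regions per 100 shared gene-body regions, and lower bars the median log2 RNA change (TDG KO over WT) of tested genes, for each autosome and X (x axis). Chromosome Y, with 1 region and 4 tested genes (median 2.54), is not drawn. Among those drawn chromosome 11 has the tallest bar in both, at 41.5 regions and a median of 0.37.

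RNA of the host genes is a measure that did not choose the regions. Of 12035 genes averaging 1 FPKM or more over the 4 libraries, 24.4% were higher and 29.5% lower in TDG KO cells (limma on log2(FPKM + 1), Benjamini-Hochberg adjusted p below 0.05). Of the 11325 among them that RefSeq holds under the same name, 24.4% were higher and 29.6% lower. Among the 1209 tested hosts 380 (31.4%) were higher, 292 (24.2%) lower and 537 not called, with a median log2 change of 0.02 against -0.04 over all tested genes. By the deposited spans the hosts were 1735 tested genes, of which 541 (31.2%) were higher and 439 (25.3%) lower. For comparison, among 3763 tested genes with a shared region and no TDG KO-only region 22.7% were higher and 30.3% lower. Hosts were expressed about as often as those genes, at a mean of at least 1 FPKM in 59.3% and 60.8% of them, against 34.3% of all RefSeq-matched genes.

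The lean of hosts towards higher RNA lay mostly on a few chromosomes. On chromosome 11, 146 of 210 tested hosts (69.5%) were higher, close to the 66.0% of all its tested genes. On chromosome 6 it was 39 of 71 hosts (54.9%), against 31.9% of all its tested genes, and on chromosome 16 it was 27 of 54 (50.0%), against 30.9%. Windows rich in these regions held many of those hosts. On chromosome 6, 14 of 18 hosts and 30 of 39 other tested genes were higher at 110 to 120 Mb. At 120 to 130 Mb it was 9 of 14 and 42 of 64. On chromosome 16 at 10 to 20 Mb it was 16 of 20 and 24 of 60. The part of position within a chromosome was not tested. On X, 13 of 23 hosts (56.5%) were lower, against 39.4% of all its tested genes. Without chromosomes 6, 11, X and Y, 191 of 904 hosts (21.1%) were higher and 255 (28.2%) lower, near the 19.5% and 31.8% of all genes there, and the host median was -0.04 against -0.08 over all tested genes there. Hosts of the regions that also met the rule among the strongest 37099 peaks were higher in 111 of 246 cases (45.1%) and lower in 44, with a median of 0.21. Hosts of 2 or more regions were higher in 83 of 206 cases (40.3%). Over all tested hosts the share was 31.4%, and over all tested genes 24.4%. Of the regions that met the rule among the strongest peaks 27.5% were on chromosome 11, against 17.4% of all 2713. Neither host group was split by chromosome here. Chromosome 11 is also the one with most regions per gene, and the differences between these host groups were not tested.

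**Figure D4:**
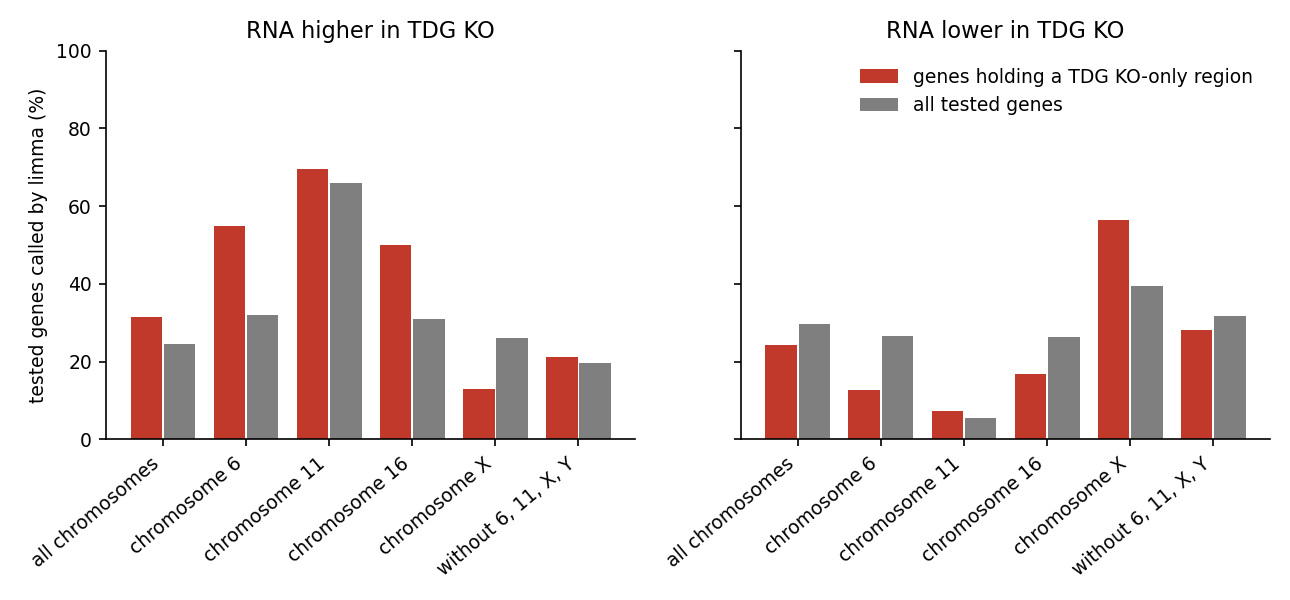
Percent of tested genes (y axis) called higher (left) or lower (right) in TDG KO cells by limma, for genes holding a TDG KO-only gene-body region (red) and all tested genes (grey), by chromosome group (x axis). Hosts on chromosome 11 (69.5% higher) are near all genes of that chromosome (66.0%), and without chromosomes 6, 11, X and Y the pair is 21.1% and 19.5%.

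The hosts that rose most included the meiosis genes Stra8 and Rec114 and the DNA methyltransferase gene Dnmt3a. Tmem40 on chromosome 6 (ENSMUSG00000059900) had 22.2 and 23.5 FPKM in TDG KO libraries against 1.09 and 1.02 FPKM in WT libraries, a log2 change of 3.54 (SE 0.08, limma adjusted p = 2.21e-06). Its regions, 493 and 306 bp wide, lay 3.24 and 9.51 kb from the nearer end of the gene. Stra8, which starts meiosis in germ cells, had 20.01 and 18.6 FPKM in TDG KO libraries against 1.87 and 1.80 FPKM in WT libraries (log2 change 2.84, SE 0.08, limma adjusted p = 3.44e-06). Magohb, a subunit of the exon junction complex, had 47.6 and 50.2 FPKM in TDG KO libraries against 8.37 and 7.85 FPKM in WT libraries. In each of these the genotypes were far apart, and the libraries of 1 genotype were close together. The cytosolic DNA sensor gene Aim2 rose by 2.36 on the log2 scale, and Rec114, needed for meiotic DNA breaks, by 1.99. The de novo DNA methyltransferase gene Dnmt3a had 35.5 and 36.3 FPKM in TDG KO libraries against 12.3 and 12.9 FPKM in WT libraries (log2 change 1.44, limma adjusted p = 1.66e-05). Its region, chr12:3817135-3817399, was among the stronger ones, at percentiles 51.3 and 59.5. Specc1, the integrin gene Itga3, the interleukin-1 receptor kinase gene Irak2 and the ubiquitin ligase adaptor gene Tnfaip1 made up the 10 highest, with log2 changes between 1.39 and 1.60. Of these 10, 4 are on chromosome 6 and 3 on chromosome 11.

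The hosts that fell most were of mixed function. Atp2a3, a calcium pump of the endoplasmic reticulum, had 3.66 and 3.52 FPKM in TDG KO libraries against 25.5 and 26.0 FPKM in WT libraries, and fell by 2.54 on the log2 scale (SE 0.07, limma adjusted p = 3.40e-06). It lies on chromosome 11, against the direction of that chromosome. So does the guidance cue gene Ntn1, which held 3 regions and had 11.9 and 12.8 FPKM in TDG KO libraries against 36.7 and 33.9 FPKM in WT libraries. The protease gene Napsa and the RNA polymerase III subunit gene Polr3gl each fell by 1.91. The growth factor gene Ptn had 7.92 and 9.40 FPKM in TDG KO libraries against 38.4 and 25.7 FPKM in WT libraries, so its WT libraries differed between themselves. Mgmt, which repairs alkylated guanine, fell by 1.37, and Cpe, a carboxypeptidase of hormone processing, fell by 1.31. Gm14393, Btbd11 and the tubulin deglutamylase gene Agtpbp1 complete the 10, with log2 changes between -1.21 and -1.06. Their regions varied in rank. The strongest, in Ntn1, was at percentiles 45.7 and 25.4, and the Mgmt region was at 8.32 and 1.14.

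**Figure D5:**
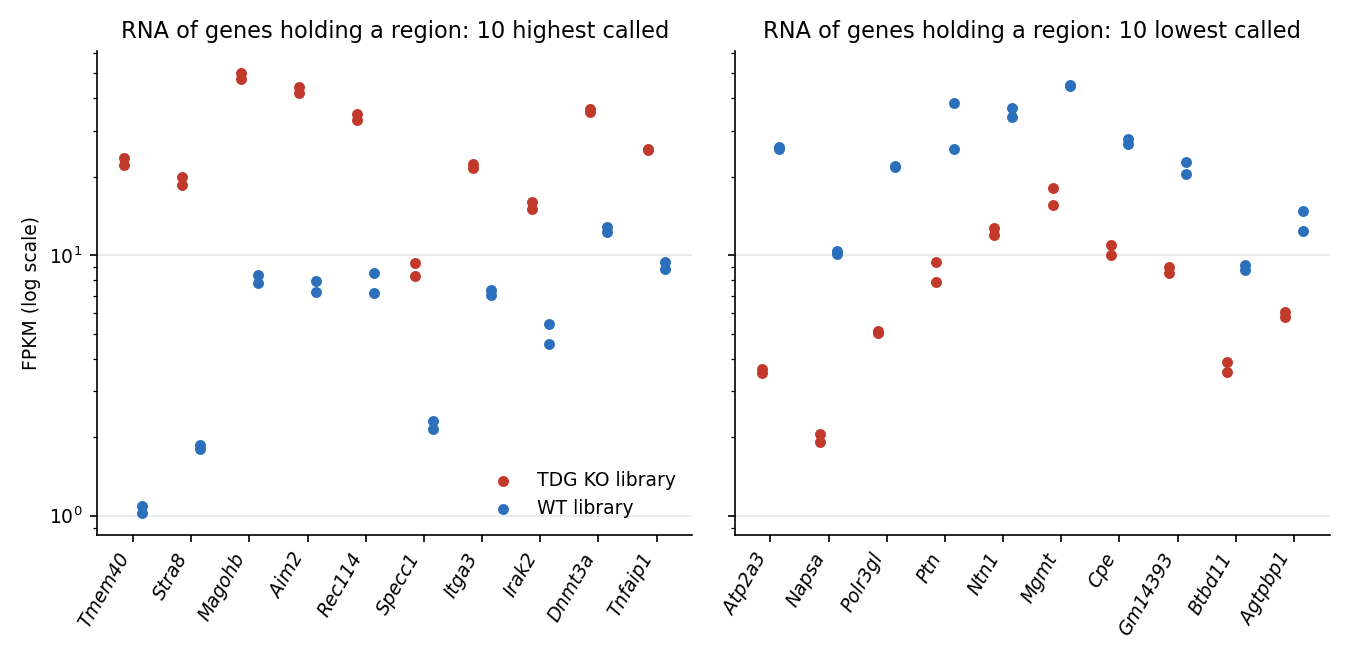
FPKM (y axis, log scale) of the 10 highest (left) and 10 lowest (right) called hosts with a mean FPKM of at least 5, each point 1 RNA library, TDG KO in red and WT in blue. The libraries of the 2 genotypes do not overlap for any of the 20 genes, as the rule for choosing them required.

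The lists of TDG and CTCF pathway genes held hosts at about the rate of all matched protein-coding genes, 9.36%. Tdg itself (chromosome 10) held no TDG KO-only gene-body region, and its RNA was 5.50 and 4.74 FPKM in TDG KO libraries against 28.1 and 30.4 FPKM in WT libraries (log2 change -2.31, limma adjusted p = 9.21e-06), which checks the labels. Ctcf held none either and was slightly lower, with 42.4 and 41.1 FPKM in TDG KO libraries against 48.8 and 52.5 FPKM in WT libraries. Its log2 change of -0.27 (limma adjusted p = 0.0118) was no longer called without TDG KO replicate 2 or WT replicate 2. Ptprc, the gene of the lymphocyte model, held no such region and was below 0.3 FPKM in every library. In the list of TDG, TET and methylation genes 2 of 25 (8%) were hosts, Dnmt3a and the cytidine deaminase gene Apobec1, and both rose, Apobec1 by 0.34, while 7 of the 23 tested genes of the list were higher and 9 lower. Apobec1 lost its call without TDG KO replicate 1 or WT replicate 1.

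Among 26 genes for CTCF partners and cohesin, 3 (11.5%) were hosts. Smc3, a core of the cohesin ring, Esco1, which acetylates it, and Hdac8, which removes that acetyl group, held 1 region each, and all 3 were lower. Smc3 had 54.7 and 50.4 FPKM in TDG KO libraries against 61.4 and 67.3 FPKM in WT libraries, a log2 change of -0.29. Esco1 had a log2 change of -0.39, and both lost the call without TDG KO replicate 2 or WT replicate 2. Hdac8, on X, fell by 0.82 and was called in every setting tried. Over the whole list 13 of 25 tested genes were lower and 5 higher, with a median of -0.27. Of 35 genes for RNA polymerase II elongation and splicing 7 (20%) were hosts, against 9.36% of all matched protein-coding genes. The large polymerase subunit gene Polr2a (49.6 and 45.4 FPKM in TDG KO libraries against 66.6 and 65.5 FPKM in WT libraries) and the splicing regulator gene Rbfox2 (15.9 and 15.5 against 23.7 and 23.1 FPKM) fell. The other 5, among them the elongation factor gene Supt5 and the splicing factor gene Srsf1, were not called. Over that list 3 of 34 tested genes were higher and 18 lower.

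Pluripotency factors held 3 regions, in 3 of 27 genes (11.1%). Pou5f1 had 996 and 1094 FPKM in TDG KO libraries against 1509 and 1572 FPKM in WT libraries (log2 change -0.56). Esrrb also fell by 0.52, and Nanog rose by 0.31, a call lost without WT replicate 1. Their regions were 1.53 to 13.6 kb from the nearer gene end and at low ranks, such as percentiles 24.5 and 6.97 in Nanog. Of the 27 genes of the pluripotency list, all tested, 6 were higher and 15 lower. None of 19 primed epiblast genes was a host, while 10 of the 14 tested were higher and 3 lower.

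Of long neural adhesion and synapse genes 21 of 44 (47.7%) were hosts, with 42 regions, against 9.36% of all matched protein-coding genes. Only 5 of the 21 reached the mean of 1 FPKM needed for the test, and Slit2, a repulsive guidance cue, was the only one of them called, at 1.56 and 2.12 FPKM in TDG KO libraries against 3.29 and 3.06 FPKM in WT libraries. Over the whole list, 1 of 10 tested genes was higher and 3 lower. Slit2 lost its call without the FPKM filter. Gene length moves with the count of hosts, and its part in the host share was not tested for this or any other list.

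Wnt pathway genes were hosts in 11 of 39 cases (28.2%), with 18 regions, against 9.36% of all matched protein-coding genes. Of the 8 tested hosts 6 rose, 1 fell and 1, Gsk3b, was not called. The ligand gene Wnt7b had 4.26 and 4.60 FPKM in TDG KO libraries against 0.904 and 0.871 FPKM in WT libraries (log2 change 1.52, limma adjusted p = 6.10e-05). The nuclear effector gene Lef1 (log2 change 0.85) lost its call without TDG KO replicate 2 or without the FPKM filter. Axin2, a negative feedback target of the pathway, rose by 0.78, and Znrf3, a ubiquitin ligase that removes Wnt receptors and a holder of 5 regions, by 0.50. Dvl2 and Tcf7l1 rose by 0.41 and 0.38, and Apc, a scaffold of the destruction complex, fell by 0.46. Of the 11 hosts 5 are on chromosome 11, among them Axin2, Znrf3 and Dvl2. The parts of chromosome and gene length in the host share were not tested. Over the whole list 9 of 25 tested genes were higher and 6 lower, with a median of 0.00.

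Of 30 germline genes 4 (13.3%) were hosts, and all 4 rose: Stra8 (2.84), Tex14 (0.69), Sycp1 (0.67) and Hormad2 (0.51), while 17 of the 24 tested genes of that list were higher. Tex14 and Hormad2 are on chromosome 11. Of 37 chromatin regulators 11 (29.7%) were hosts, and of the 9 tested 3 rose, Rai1 (0.78), Hdac5 (0.66) and Suz12 (0.48), all on chromosome 11. Kdm6a (-0.62), Arid1b (-0.56) and Rere (-0.33) fell, and Ncor1, with 5 regions on chromosome 11, had 90.9 and 81.6 FPKM in TDG KO libraries against 90.6 and 86.2 FPKM in WT libraries and was not called. Of 41 imprinted genes 8 (19.5%) were hosts, and of the 5 tested Impact (0.88), Peg3 (0.88) and Mest (0.54) rose, Gnas fell by 0.31 and Igf2r was not called. Over the whole lists, 8 of 34 tested chromatin genes were higher and 11 lower, and 13 of 31 tested imprinted genes were higher and 5 lower. Of extracellular matrix and adhesion genes 8 of 32 (25%) were hosts, against the same 9.36%. Of the 4 tested, Fbn1 (-0.62) and Tns3 (-0.18) fell. Both calls were lost in several alternatives, among them without TDG KO replicate 2. Over that list 3 of 25 tested genes were higher and 9 lower.

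Markers of the feeder cells moved with genotype. Of 11 fibroblast marker genes 9 were lower in TDG KO cells, and Col1a1 and Thy1 were not called. The FPKM of the 11 summed to 249 and 263 in TDG KO libraries, against 511 and 367 in WT libraries. Fn1 made up a large part of these sums, at 125 and 120.5 in TDG KO libraries and 228 and 187 in WT libraries. Of the 11 genes Pdgfrb and Col1a1 are hosts, and Pdgfrb (-0.35) fell, a call lost in several alternatives. In a longer list of 28 fibroblast genes 3 were hosts, with Twist2 the third, and 14 of 26 tested genes were lower and 4 higher. None of the 11 was at 0. The 5 stem cell markers were all expressed, with 1 higher and 2 lower. The part of feeder RNA in the changes of matrix and adhesion hosts was not tested.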

How the data were processed

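CTCF peaks came from 1 list per library, each with a score per peak that the authors deposited. The sources used here state neither the control library nor the peak threshold nor what the score measures. RNA values are FPKM, and the authors' deposited table of the comparison adds log2 folds of WT over TDG KO, a test score and p-values. Per the submitters' processing notes, Bowtie2 2.2.9, MACS2 2.2.1, deepTools, TopHat2 2.1.1, Cufflinks 2.2.1, Cuffdiff and build mm10 were used, without roles given. Absolute RNA depth is unknown. Steps between low FPKM values put it, relative to WT replicate 1, at 0.991 and 0.928 for TDG KO replicates 1 and 2 and 0.858 for WT replicate 2.

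Peaks were merged by single linkage, and the rule above was applied to region centres. For RNA, limma 3.58.1 (R 4.3.3, trend option, log2(FPKM + 1), no covariate) was fitted to all 4 libraries and the 12035 genes averaging 1 FPKM or more, with adjustment over all of them. The pseudocount understates changes of low genes. Both procedures were tested on simulated data. Strand use in counting is not given, so overlapping and antisense genes are uncertain. Hosts were planned by deposited spans and are given by RefSeq spans, an alternative chosen after seeing the data.

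The regions, the 13 gene lists and the rules for naming genes were chosen with earlier results of these data known. The result of 1 list is not reported here. Named are the 5 best-ranked and 3 most remote regions, the regions at the distance limit, the 5 genes with most regions, the 10 highest and 10 lowest called hosts averaging 5 FPKM or more whose genotypes do not overlap, up to 3 called hosts of each list, and Tdg, Ctcf and Ptprc. Other list members, the sequences and the Coq8b region were named after their values were seen. Replicate numbers did not pair the libraries (correlation of deviations -0.02). The authors' deposited table marks 410 of the 672 called hosts as significant, and the direction was the same in all 410. Motif counts over whole regions, and with other windows, would need a genome sequence and were not analysed here.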

Additional observations from a re-analysis of the deposited data

How the results depend on the processing

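The number of TDG KO-only gene-body regions, 2713, depended most on the peak lists. Leaving out 1 list drops a condition of the rule, so a rise was set in advance and only its size is informative. With 1 list left out the number ran between 3845 and 4555. It was 4466 without TDG KO list 1, 4555 without TDG KO list 2 and 4216 without WT list 1. Each of these was over 1.5 times the full count. The number was 538 with the strongest equal number of peaks per list. With only the peaks above each list's median score it was 1246, of which only 14 overlap the 2713. It was 1681 with spans of genes averaging 1 FPKM or more and 1050 with spans held by 1 gene. Merging at 50% overlap, 5 kb or no distance from gene ends, RefSeq spans, or leaving out chromosomes 6, 11, X and Y gave between 1986 and 2927. Hosts by deposited spans numbered 541 higher and 439 lower of 1735 tested (31.2% and 25.3%). With the strongest peaks per list they were 184 higher and 80 lower of 434, with a median of 0.15 in place of 0.02. Without chromosomes 6, 11, X and Y 289 of 1323 (21.8%) were higher. RefSeq spans gave 292 lower of 1209 (24.2%). For RefSeq hosts, 380 higher and 292 lower of 1209, the strongest peaks gave 111 and 44 of 246 with a median of 0.21. Keeping genes at 5 FPKM or more gave 249 higher of 796, a share of 31.3% against 31.4% in full, so fewer genes were tested at a like share. Leaving out chromosomes 6, 11, X and Y gave 191 higher of 904 (21.1%). Over all RefSeq-matched tested genes 24.4% were higher in full, and 19.5% without these chromosomes. Without single RNA libraries the median log2 change of RefSeq hosts ran between -0.004 and 0.035, and that of hosts by deposited spans between 0.006 and 0.024. With the replicate number as a block, 384 RefSeq hosts were higher and 299 lower of 1209 (546 and 454 of 1735 by deposited spans). No named gene reversed, and 11 of 55 called ones lost the call in at least 1 setting. Except where a setting keeps fewer genes, regions or lists, the cause was not tested. Single mismatches and whole regions could not be searched for the motif beyond the promoter windows. Unknown depth of the CTCF libraries limits what the absence of a WT peak says.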
